A study of Homo sapiens with 7 samples.

Results

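The 10 genes described here mark the myoepithelial cell of the breast or build its contractile apparatus. MME and OXTR encode surface proteins of that cell, and ACTA2, TAGLN, CNN1, MYLK, MYL9, TPM1, TPM2 and CALD1 encode proteins of the smooth muscle type of contraction. They were chosen by gene symbol from a list of such genes, as 10 of the 19304 genes that the probe annotation names, and 20 probes of the array carry their symbols. Expression was measured in MCF-10A, a non-transformed human mammary epithelial line. One set of cells stably carried a lentiviral short hairpin RNA against Brit1, a gene of the DNA damage response (shBrit1, 4 arrays). Their controls stably carried a scrambled hairpin (shControl, 3 arrays). All cells grew in the same medium and were harvested 48 h after seeding, and total RNA was hybridised to 1-colour bead arrays. The submitters called the samples biological replicates, and the labels do not state whether a line was a clone or a pool. The gene aimed at was not analysed here, and the groups are as labelled.

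Myoepithelial cells form the outer layer of mammary ducts and alveoli and squeeze milk from them. Oxytocin binds its receptor on these cells and raises calcium through a Gq protein. Calcium-bound calmodulin then switches on myosin light chain kinase, which phosphorylates the regulatory light chain of myosin and lets it pull on actin filaments. Tropomyosins, caldesmon and calponin sit along the thin filament and tune this pull. Many genes of smooth muscle contraction are controlled by serum response factor and its myocardin-family partners through a promoter element called the CArG box.

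Between 16537 and 17343 probes were detected on an array, and precision is limited by how few arrays there are. Across tested probes the shBrit1 arrays correlated at 0.995 to 0.998 with each other, the controls at 0.975 to 0.997, and arrays of different groups at 0.930 to 0.937. The control shControl replicate 3 stood apart from the other controls, so results whose call it decided, and several whose size moved with it, are also given without it. Among the tested probes of these genes it differed most from the mean of the other controls at MME probe 1 (-0.92), TPM1 probe 1 (-0.65) and CALD1 probe 2 (0.65), on the log2 scale, and it differed by 0.04 at ACTA2. No called probe of these genes changed direction without it.

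The group moved in both directions. Of the 10 genes 9 could be tested, and 6 of these were higher in shBrit1 (MME, ACTA2, MYLK, TPM1, TPM2 and CALD1), 2 were lower (OXTR and TAGLN) and 1, MYL9, was not called (limma, adjusted p under 0.05, 1 probe per gene). Over all 12372 genes tested, 29.5% were higher and 30.1% were lower, 59.6% in all. CNN1 was not detected on any array and was not tested. With background correction the largest differences were in the surface markers and in smooth muscle actin: MME was 9.40-fold higher, ACTA2 3.07-fold higher and OXTR at least 3.11-fold lower. With no background correction OXTR was 1.88-fold lower, a smaller difference than that of TPM1 (1.92-fold higher). The median log2 difference of the 9 genes was 0.40, against -0.01 over all genes tested. When shControl replicate 3 was left out, 5 genes were higher and 2 lower, because TPM2 was then not called. With median scaling of the arrays in place of quantile normalization 4 were higher and 2 lower, because TPM2 and CALD1 were then not called. Median scaling put the median of all genes at -0.15, and the median of the 9 genes at 0.11.

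A probe counted as detected on an array when its detection p-value, the share of negative control probes with a higher signal, was under 0.05. Probes detected on at least 3 of the 7 arrays were tested, which kept 17967 of 48701. A probe detected in a single group passes this filter through that group alone, which favours a difference in that direction. Of the genes named here this held for OXTR and ITGA6, through the controls, and for KRT19 and CD79A, through shBrit1. Of the 20 probes of these genes 14 were tested, 9 were detected on all 7 arrays and 5 on none. By probe, 7 were higher in shBrit1, 2 lower and 5 not called, against 26.9% higher and 26.9% lower (53.8% in all) over all probes. With median scaling 38.7% of all called probes were higher, against 49.9% with quantile normalization. The 2 groups did not overlap at 9 of the 14 tested probes, against 56.0% of all tested probes, or at 8 of the 9 genes, against 61.8% of all genes. Values below are normalized signals on the log2 scale unless a bead signal is named. Where a gene has several probes they are numbered from the brightest, and the probe annotation does not say which transcripts each of them reads. Tropomyosin and actin genes have close paralogs, so part of a signal could come from a relative of the named gene.

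**Figure D1:**
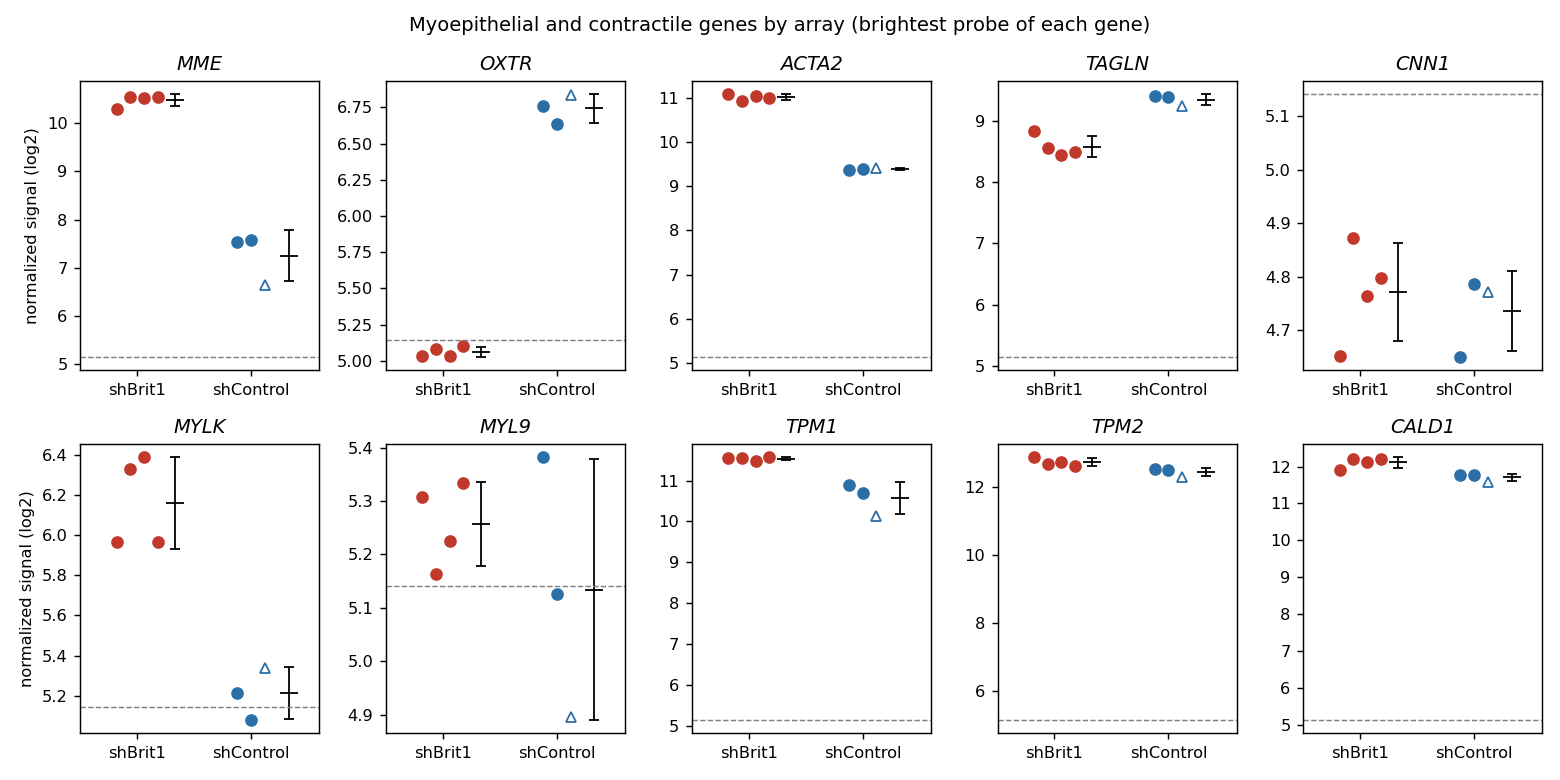
Normalized signal (log2, vertical axis, a separate range in each panel) of the brightest probe of each gene, with 1 point per array, shBrit1 in red and shControl in blue, the open triangle being shControl replicate 3. The black mark and bar give the mean and SD (n = 4 and n = 3), and the dashed line, at 5.14, is the highest of the 7 arrays' lowest detected signals. MME and ACTA2 lie far above their controls in shBrit1, OXTR lies just under the line in shBrit1, and CNN1 lies under it on every array.

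MME encodes neprilysin (CD10), a zinc peptidase of the cell surface that is used in pathology to mark myoepithelium. The gene lies at chr3:155024202-155183729 (GRCh38.p14). Its brightest probe read 10.29, 10.54, 10.53 and 10.55 on the shBrit1 arrays, against 7.54, 7.57 and 6.63 on the shControl arrays. Every shBrit1 array lay above every control by more than the spread within either group, and shControl replicate 3 was the lowest array. The means were 10.48 ± 0.12 (SD, n = 4) in shBrit1 and 7.25 ± 0.53 (SD, n = 3) in shControl, a log2 difference of 3.23 (SE 0.22, 95% interval 2.74 to 3.72, limma adjusted p = 4.34e-06). MME was 7.59-fold higher when shControl replicate 3 was left out, and 6.88-fold higher with no background correction. The other 3 MME probes were dim and did not show this difference. Probe 2 read 5.45, 5.21, 5.52 and 5.43 on the shBrit1 arrays, against 5.14, 5.24 and 5.28 on the shControl arrays, and the log2 difference of 0.18 was not called (limma adjusted p = 0.162, 95% interval -0.05 to 0.41). Probe 3 was detected on 2 shBrit1 arrays and 0 shControl arrays, and probe 4 on none of the 7. The 9.40-fold difference therefore rests on 1 of the gene's 4 probes.

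OXTR encodes the oxytocin receptor, the G protein-coupled receptor through which myoepithelial cells are made to contract. The receptor gene is at chr3:8741269-8769613. Its only probe read 5.03, 5.08, 5.03 and 5.10 on the shBrit1 arrays, against 6.76, 6.64 and 6.83 on the shControl arrays. The controls were close together, and no shBrit1 array reached the level at which a probe counts as detected. OXTR therefore passed the detection filter through the 3 controls alone, which favours a lower value in shBrit1. The means were 5.06 ± 0.04 (SD, n = 4) in shBrit1 and 6.74 ± 0.10 (SD, n = 3) in shControl (log2 difference -1.68, SE 0.09, limma adjusted p = 1.09e-06). With no filter the same difference was also called (limma adjusted p = 9.12e-07). The receptor was thus at least 3.11-fold lower, a bound set by the lowest detected signals of the shBrit1 arrays. With no background correction it was 1.88-fold lower (log2 difference -0.91), so the bound holds only for background-corrected values. Its control signal was itself modest, as the bead signals before correction averaged 92.0 ± 1.55 (SD, n = 4) in shBrit1 and 162 ± 6.51 (SD, n = 3) in shControl.

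ACTA2 encodes alpha smooth muscle actin, the actin isoform by which myoepithelial cells and myofibroblasts are recognised. The gene lies at chr10:88935074-88991337. Its only probe read 11.08, 10.92, 11.04 and 11.003 on the shBrit1 arrays, against 9.38, 9.39 and 9.42 on the shControl arrays. The arrays of each group lay close together, with a gap between the groups many times wider than either. The means were 11.01 ± 0.07 (SD, n = 4) in shBrit1 and 9.39 ± 0.02 (SD, n = 3) in shControl, a log2 difference of 1.62 (SE 0.08, 95% interval 1.43 to 1.80, limma adjusted p = 1.09e-06). The gene was called higher in each of the 17 alternative settings, with log2 differences of 1.30 to 1.65.

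TAGLN encodes transgelin (SM22), an actin-bundling protein of smooth muscle whose gene is often read together with ACTA2 as a sign of contractile differentiation. Here the 2 genes went opposite ways. TAGLN is at chr11:117199294-117207465. Probe 1 read 8.83, 8.56, 8.44 and 8.49 on the shBrit1 arrays, against 9.41, 9.39 and 9.24 on the shControl arrays. Every shBrit1 array lay below every control. The means were 8.58 ± 0.17 (SD, n = 4) in shBrit1 and 9.35 ± 0.09 (SD, n = 3) in shControl, so the gene was 1.70-fold lower (log2 difference -0.77, SE 0.11, limma adjusted p = 0.000468). It was called lower in each of the 17 alternatives, with log2 differences of -1.03 to -0.68. Probe 2 of TAGLN was not detected on any array.

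CNN1 encodes calponin 1, a thin filament protein that restrains the myosin motor and a strict marker of mature smooth muscle and myoepithelium. CNN1 is at chr19:11538851-11550323. Its only probe gave bead signals of 73.7, 81.1, 77.5 and 78.9 on the shBrit1 arrays, against 63.0, 77.2 and 75.7 on the shControl arrays. The detection p-values ran from 0.243 to 0.809 in shBrit1 and from 0.438 to 0.821 in shControl, so this probe stayed within the range of the negative controls in both groups. No fold is given for it.

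TPM1 and TPM2 encode tropomyosins, coiled coils that lie along the actin filament and govern where myosin can bind. TPM1 lies at chr15:63042747-63071915 and TPM2 at chr9:35681993-35690056. TPM1 probe 1 read 11.54, 11.56, 11.48 and 11.57 on the shBrit1 arrays, against 10.89, 10.69 and 10.14 on the shControl arrays. The shBrit1 arrays lay close together, while shControl replicate 3 was lower than the other controls by 0.65. The means were 11.54 ± 0.04 (SD, n = 4) in shBrit1 and 10.57 ± 0.39 (SD, n = 3) in shControl, and TPM1 was 1.96-fold higher (log2 difference 0.97, SE 0.16, limma adjusted p = 0.000931). It was 1.68-fold higher when shControl replicate 3 was left out (limma adjusted p = 2.23e-05). TPM1 probe 2 was not detected on any array.

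The TPM2 difference was smaller. Probe 1 of TPM2 read 12.88, 12.67, 12.73 and 12.62 on the shBrit1 arrays, against 12.52, 12.49 and 12.30 on the shControl arrays. The groups did not overlap, but the gap between them was narrower than the spread within either. The log2 difference was 0.29 (SE 0.10, limma adjusted p = 0.0387), and leaving out shControl replicate 3 gave 0.22 (limma adjusted p = 0.0652). The call was also lost when shControl replicate 2 or any of shBrit1 replicates 1, 2 and 3 was left out (log2 differences 0.24 to 0.31). Probe 2 of TPM2 read 12.45, 12.29, 12.40 and 12.35 on the shBrit1 arrays, against 12.01, 12.01 and 11.55 on the shControl arrays. This probe was 1.43-fold higher (log2 difference 0.51, SE 0.13, limma adjusted p = 0.00813), and 1.28-fold higher without shControl replicate 3 (limma adjusted p = 0.00352). The dim probe 3 leaned the other way with a log2 difference of -0.19 (limma adjusted p = 0.252). Probe 3 was called lower when shControl replicate 3 was left out, at -0.32 (limma adjusted p = 0.0154). With median scaling none of the 3 TPM2 probes was called.

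CALD1 encodes caldesmon, which binds actin, tropomyosin and calmodulin and exists as a heavy smooth muscle form and a light form of other cells. CALD1 is at chr7:134711499-134970729. Probe 1 read 11.89, 12.22, 12.13 and 12.21 on the shBrit1 arrays, against 11.77, 11.77 and 11.59 on the shControl arrays. The groups did not overlap, with a narrow gap between them. The means were 12.11 ± 0.15 (SD, n = 4) in shBrit1 and 11.71 ± 0.10 (SD, n = 3) in shControl, a log2 difference of 0.40 (SE 0.11, limma adjusted p = 0.0119). With median scaling it was 0.06 (limma adjusted p = 0.754). Probe 2 of CALD1 read 8.26, 7.84, 8.02 and 7.69 on the shBrit1 arrays, against 7.66, 7.69 and 8.32 on the shControl arrays. Here shControl replicate 3 was the highest of the 7 arrays, the groups overlapped, and the log2 difference of 0.06 was not called (limma adjusted p = 0.805, 95% interval -0.37 to 0.50). Which of the caldesmon forms each probe reads is not known here.

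MYLK encodes myosin light chain kinase, the enzyme that starts contraction. The gene lies at chr3:123610049-123884332. Its probe 1 was dim and read 5.96, 6.33, 6.39 and 5.96 on the shBrit1 arrays, against 5.22, 5.08 and 5.34 on the shControl arrays. It was detected on all 4 shBrit1 arrays and on 2 of the 3 controls, and the groups did not overlap. The means were 6.16 ± 0.23 (SD, n = 4) in shBrit1 and 5.21 ± 0.13 (SD, n = 3) in shControl, so MYLK was 1.93-fold higher (log2 difference 0.95, SE 0.14, limma adjusted p = 0.000379). With the authors' deposited log2 values it was 1.40-fold higher. MYLK probe 2 was not detected on any array.

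MYL9 encodes the smooth muscle regulatory light chain, the substrate of that kinase. MYL9 is at chr20:36541519-36551447. Probe 1 read 5.31, 5.16, 5.23 and 5.33 on the shBrit1 arrays, against 5.38, 5.13 and 4.90 on the shControl arrays. The values overlapped, and probe 1 was detected on 4 shBrit1 arrays and 2 controls. The log2 difference was 0.12 (limma adjusted p = 0.435, 95% interval -0.16 to 0.40). Probe 2 of MYL9 gave 0.10 (limma adjusted p = 0.482, 95% interval -0.15 to 0.35). These intervals leave room for a modest rise or a slight fall, and neither probe was called in any alternative.

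**Figure D2:**
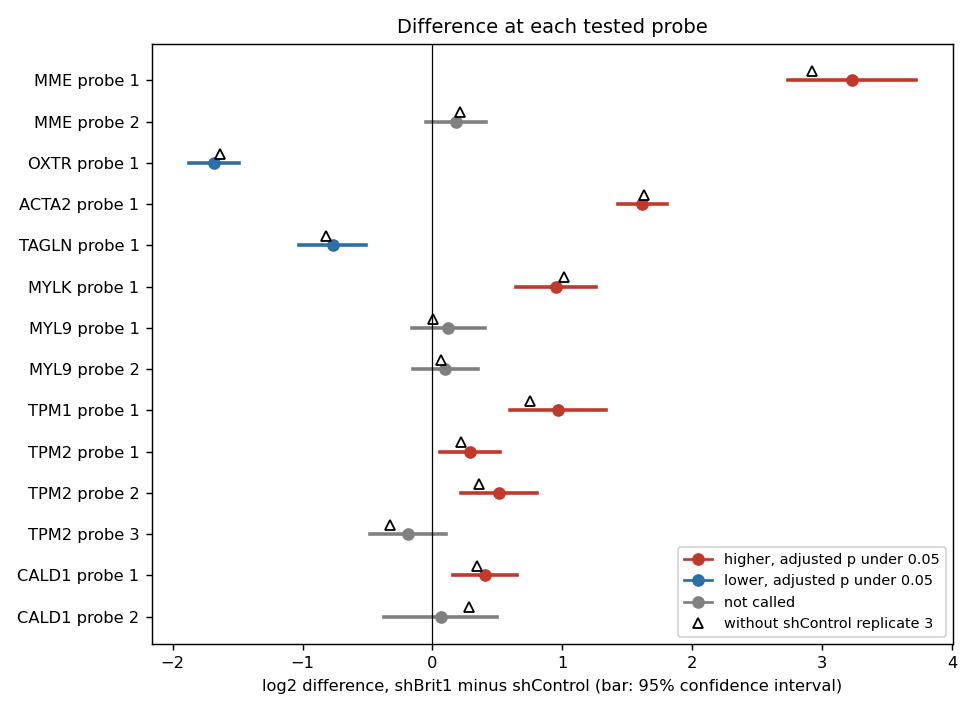
Log2 difference of shBrit1 minus shControl (horizontal axis) at the 14 tested probes, with 95% confidence intervals. Red probes were higher and blue ones lower at an adjusted p under 0.05, grey ones were not called, and open triangles give the difference without shControl replicate 3. MME probe 1 stands far to the right at 3.23, while its probe 2 stands at 0.18.

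Promoter windows of ACTA2 and MYLK, which both rose, are shown because the CArG box is the element through which smooth muscle genes are best known to be read. The 250 bases before each RefSeq gene start (GRCh38.p14) were searched on both strands for the CArG box, and for the same element with 1 of its 6 central bases G or C. The pattern is its own reverse complement. Over all 35116 windows 1.16% held the box itself and 7.04% held it or the looser form. Windows were at hand for 8 of the 10 genes, 18 in all. MYLK had the box itself, in 1 of these windows. ACTA2 had the looser form at 2 places in 1 window, and CALD1 and OXTR had it in 1 window each. Of these genes OXTR was lower and MYLK, ACTA2 and CALD1 were higher in shBrit1. The windows of MME, TPM1 and TPM2, which were also called higher, held neither form, nor did that of CNN1. The ACTA2 window is chr10:88952774-88953023 and the MYLK window is chr3:123620549-123620798, both on the minus strand and both before a start that lies inside the span of the gene. On this strand MYLK runs from 123884332 to 123610049, so its window lies near the downstream end of the gene. No window at the upstream end of MYLK was at hand. Whether the MYLK probes read transcripts from this internal start is not known here. Capitals mark the matches. A match describes these letters and is not a shown binding site.
ACTA2: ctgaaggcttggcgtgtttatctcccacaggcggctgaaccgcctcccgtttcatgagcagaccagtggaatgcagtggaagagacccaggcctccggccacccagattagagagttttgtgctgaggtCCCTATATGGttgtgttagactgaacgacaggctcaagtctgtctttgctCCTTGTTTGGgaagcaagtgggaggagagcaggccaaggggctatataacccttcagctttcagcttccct
MYLK: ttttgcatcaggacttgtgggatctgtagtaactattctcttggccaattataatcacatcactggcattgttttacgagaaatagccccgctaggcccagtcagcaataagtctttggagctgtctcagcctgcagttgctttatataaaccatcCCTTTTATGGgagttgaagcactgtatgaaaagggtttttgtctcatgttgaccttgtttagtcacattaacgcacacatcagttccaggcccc
In ACTA2 the matches begin 121 and 71 bases before the start, and in MYLK the match begins 94 bases before it.

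The genes around these 10 were described through lists of their partners. Each count below is to be read against the shares over all genes tested, 29.5% higher and 30.1% lower. The other actomyosin and thin filament genes, most of them forms that non-muscle cells use, held 0 higher and 12 lower of 19 tested by limma (13 with an unadjusted p under 0.05 in either direction), with a median log2 difference of -0.39, so none of them went the way of ACTA2 past the threshold. SMTN, the gene of smoothelin, a protein of contractile smooth muscle, was 2.94-fold lower (limma adjusted p = 0.000269). TMOD3, which caps filament ends, was 2.72-fold lower, and CNN3, a non-muscle calponin, 1.91-fold lower. With no background correction SMTN was 2.47-fold, TMOD3 2.03-fold and CNN3 1.89-fold lower. Lower, too, were the genes named for their level, with log2 differences of -0.29 for ACTB (beta-actin), -0.51 for MYL6 (essential light chain) and -0.39 for MYL12A (non-muscle regulatory light chain). With cyclic loess in place of quantile normalization ACTB, MYL6 and MYL12A were at -0.14, -0.23 and -0.16. Of the 19 genes 8 were then lower and 0 higher. Without shControl replicate 3, 14 were lower and 0 higher, and SMTN was 2.40-fold lower.

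Crosslinkers of actin filaments and linkers of focal adhesions held 4 higher and 5 lower of 16 tested, with a median of -0.05. These counts lie near the shares over all genes tested (29.5% higher and 30.1% lower). TNS3, a tensin of focal adhesions, was 3.36-fold higher (limma adjusted p = 6.05e-06). ACTN1, the gene of alpha-actinin 1, was 2.38-fold lower and PDLIM7, a LIM protein of stress fibres, 2.18-fold lower. FHL2 had a log2 difference of 0.32 (limma adjusted p = 0.00888) that was -0.01 with median scaling, and VCL (vinculin) of -0.17 (limma adjusted p = 0.136), called lower at -0.23 when shControl replicate 3 was left out. With median scaling this list held 1 higher and 8 lower, and without shControl replicate 3 it held 5 higher and 6 lower.

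Genes that set the phosphorylation of myosin light chains held 0 higher and 7 lower of 12 tested by limma (7 with an unadjusted p under 0.05), with a median of -0.40. PPP1R14B, an inhibitor of protein phosphatase 1, was 1.70-fold lower (limma adjusted p = 0.000362), and the small GTPase gene RHOC 1.33-fold lower. RHOA had a log2 difference of -0.17 (limma adjusted p = 0.144), which was 0.08 with cyclic loess. Leaving out shControl replicate 3 gave 2 higher and 7 lower.

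Serum response factor and the myocardin family held 2 higher and 3 lower of 8 tested, with a median of 0.10. SRF itself was 1.28-fold lower (log2 difference -0.36, limma adjusted p = 0.0365), and its coactivator gene MRTFA 1.28-fold higher (log2 difference 0.35, limma adjusted p = 0.0270). ELK4, an ETS partner of SRF, was 2.19-fold lower (1.51-fold with no background correction). ABLIM1 had a log2 difference of 0.31 and ELK1 of 0.23 (limma adjusted p = 0.0400 and 0.0752), and with median scaling these were -0.05 and -0.08. MRTFA and ABLIM1 were not called with median scaling, which left 0 higher and 3 lower. Leaving out shControl replicate 3 gave 2 higher and 2 lower. SRF and ABLIM1 were then not called (limma adjusted p = 0.0552 and 0.0663), and ELK1 was called higher (log2 difference 0.31).

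Genes downstream of the oxytocin receptor held 5 higher and 2 lower of 12 tested, with a median of 0.09. RGS2, which shortens Gq signals, was 3.08-fold higher (limma adjusted p = 0.000874), or 4.04-fold without shControl replicate 3. CAMK2D, a calmodulin-dependent kinase subunit, was 2.37-fold higher and ITPR1, a calcium release channel, 2.28-fold higher (1.94-fold and 1.62-fold with no background correction). PRKCD, a protein kinase C, was 1.67-fold higher. GNA11, a Gq-class alpha subunit, had a log2 difference of -0.11 (limma adjusted p = 0.372) and ITPR3 of 0.19 (limma adjusted p = 0.199), which was -0.05 with median scaling. Leaving out shControl replicate 3 put ITPR3 at 0.30 (limma adjusted p = 0.0141), called higher. The 2 lower genes, named after their values were seen, were PRKCA and PLCB3. Their log2 differences were -0.66 for PRKCA (limma adjusted p = 0.000986) and -0.55 for PLCB3 (limma adjusted p = 0.00836). With median scaling GNA11 was called lower (log2 difference -0.41, limma adjusted p = 0.0118). The list then held 5 higher and 3 lower, with a median of -0.04. The receptor itself was thus lower, while genes of its pathway were called in both directions.

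Of the peptidases set beside MME, 2 were higher and 1 lower of 7 tested, with a median of -0.22. ANPEP (CD13), another zinc peptidase of the cell surface, was 1.37-fold lower (log2 difference -0.45, limma adjusted p = 0.0356). CPD, a carboxypeptidase of the trans-Golgi network, was 1.53-fold higher, and DPP7, a dipeptidyl peptidase of intracellular vesicles, 1.56-fold higher. With median scaling CPD and DPP7 were not called.

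**Figure D3:**
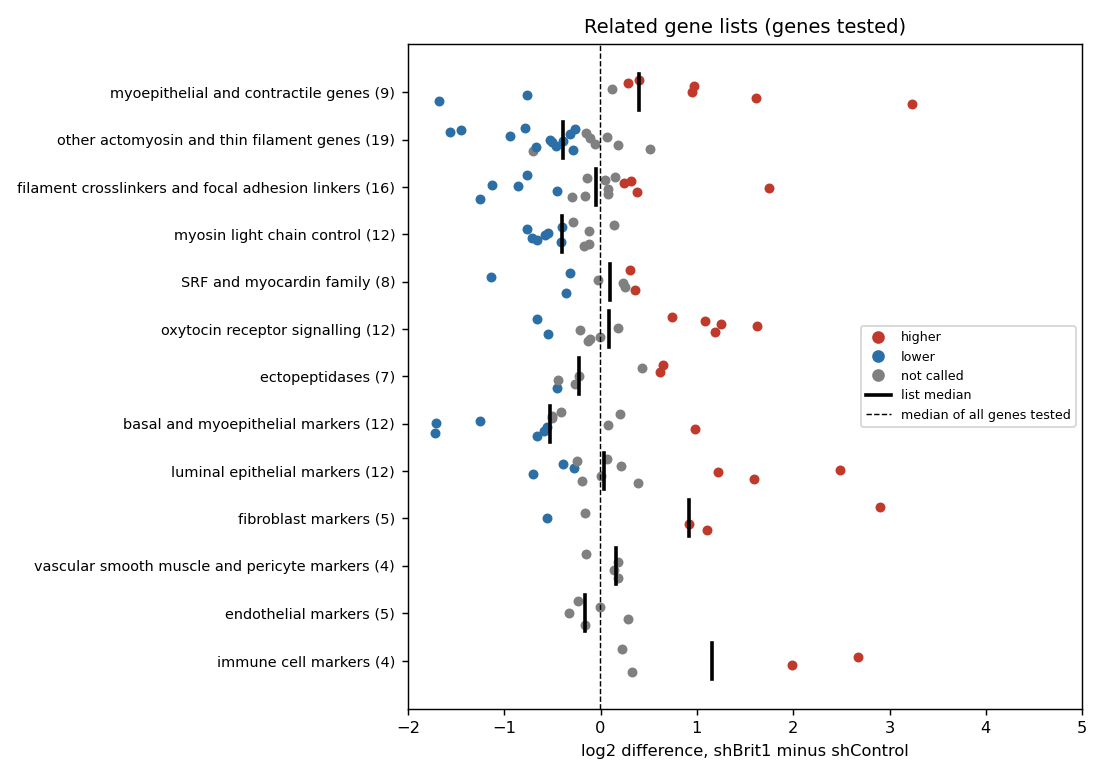
Log2 difference of shBrit1 minus shControl (horizontal axis) for each tested gene of the 13 lists, with the number tested in brackets. Red genes were higher and blue ones lower at an adjusted p under 0.05, grey ones were not called, the thick bar is the list median and the dashed line the median of all genes tested. The myoepithelial and contractile genes spread over both sides, while no other actomyosin gene is red.

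The label of a mammary epithelial line was set against marker genes. Over all genes tested 29.5% were higher and 30.1% lower, and the counts of the marker lists stand beside these shares. Of 12 basal and myoepithelial markers tested, 11 were detected on every array, and ITGA6 on the 3 controls but on 0 of the 4 shBrit1 arrays. Of the 12, 1 was higher and 6 were lower in shBrit1, with a median of -0.53. KRT14, the basal keratin, averaged 11.66 ± 0.06 (SD, n = 4) in shBrit1 and 13.39 ± 0.98 (SD, n = 3) in shControl, 3.30-fold lower (limma adjusted p = 0.00374). On shControl replicate 3 KRT14 lay 1.70 log2 above the mean of the other controls, and leaving that array out gave 2.23-fold lower. SFN (stratifin) was 3.26-fold lower (2.54-fold without shControl replicate 3), S100A2 2.38-fold lower, KRT5 1.58-fold lower and ITGB1 1.47-fold lower. The 1 higher marker was ITGB4, an integrin subunit of hemidesmosomes, named after its value was seen. ITGB4 was 1.97-fold higher (limma adjusted p = 0.00171), or 2.32-fold without shControl replicate 3. NGFR was not detected on any array, and the summed level of the list (linear, tested genes) was 61204 to 65846 in shBrit1 and 86511 to 137054 in shControl. With median scaling 9 basal markers were lower. When shControl replicate 3 was left out, 2 were higher, ITGB4 and CDH3, and 7 were lower.

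Markers of luminal cells held 3 higher and 3 lower of 12 tested, with a median of 0.03. The luminal transcription factor gene GATA3 was 5.60-fold higher (limma adjusted p = 4.04e-06), or 3.70-fold with no background correction. MUC1, a luminal surface mucin, was 2.33-fold higher, and KRT19, undetected on the 3 control arrays, at least 2.59-fold higher, though 1.85-fold with no background correction. The 3 lower markers, named after their values were seen, were EPCAM, an epithelial adhesion molecule, and the transcription factor genes FOXA1 and ELF5. Their log2 differences were -0.70 for EPCAM (limma adjusted p = 0.0485), -0.39 for FOXA1 (limma adjusted p = 0.00856) and -0.27 for ELF5 (limma adjusted p = 0.0327). EPCAM was at -1.09 without shControl replicate 3, and ELF5 was not called with median scaling (limma adjusted p = 0.0549). KRT8 and KRT7 had log2 differences of 0.39 (limma adjusted p = 0.379) and 0.00 (limma adjusted p = 0.993), the KRT7 value being -0.32 with median scaling. These keratins were low on shControl replicate 3, and leaving it out gave -0.14 for KRT8 (limma adjusted p = 0.195) and -0.41 for KRT7 (limma adjusted p = 0.00186). KIT and PGR were not detected on any array, and the summed level of the luminal list was 25854 to 27540 in shBrit1 and 12382 to 21372 in shControl. Leaving out shControl replicate 3 gave 3 higher and 6 lower.

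Markers of other cell types were checked in the same way. Of the markers of vascular smooth muscle and pericytes 4 were tested and 0 called by limma (0 of the 4 with an unadjusted p under 0.05), among them MYH11, MCAM and CSPG4, and DES, RGS5, KCNJ8 and ABCC9 were not detected on any array. Leaving out shControl replicate 3 gave 1 higher, CSPG4. Their summed level (linear, tested genes) was 152 to 165 in shBrit1 and 148 to 153 in shControl. Of 11 fibroblast markers 5 were tested, with 3 higher and 1 lower. The matrix genes POSTN, COL1A1 and COL3A1 were 7.46-fold, 2.16-fold and 1.89-fold higher (5.43-fold, 2.64-fold and 1.51-fold without shControl replicate 3), while FAP was 1.47-fold lower and PDGFRA, PDGFRB, LUM and THY1 were not detected on any array. With no background correction POSTN, COL1A1 and COL3A1 were 5.31-fold, 1.61-fold and 1.42-fold higher. The summed level of the fibroblast markers was 1932 to 2357 in shBrit1 and 1534 to 1679 in shControl. Of 9 immune markers 4 were tested and 2 were higher, CD14 by 6.39-fold (3.34-fold with no background correction) and CD68 by 3.96-fold, and CD79A had a log2 difference of 0.32 (limma adjusted p = 0.0537, or 0.0419 and called when shControl replicate 3 was left out). CD3E, NKG7 and MS4A1 were not detected on any array, and the summed level was 1823 to 2290 in shBrit1 and 512 to 543 in shControl. The 5 endothelial markers tested, PECAM1, CLDN5 and ERG among them, held 0 calls by limma (0 with an unadjusted p under 0.05, and 1 lower when shControl replicate 3 was left out), at 200.2 to 217 in shBrit1 and 221 to 232 in shControl, with CDH5, VWF and EMCN undetected. The part of the basal, luminal, fibroblast and immune marker genes in the values of ACTA2, MME and the other 8 genes was not tested. In bulk RNA a change in the number of cells that express a gene and a change in RNA per cell cannot be told apart.

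**Figure D4:**
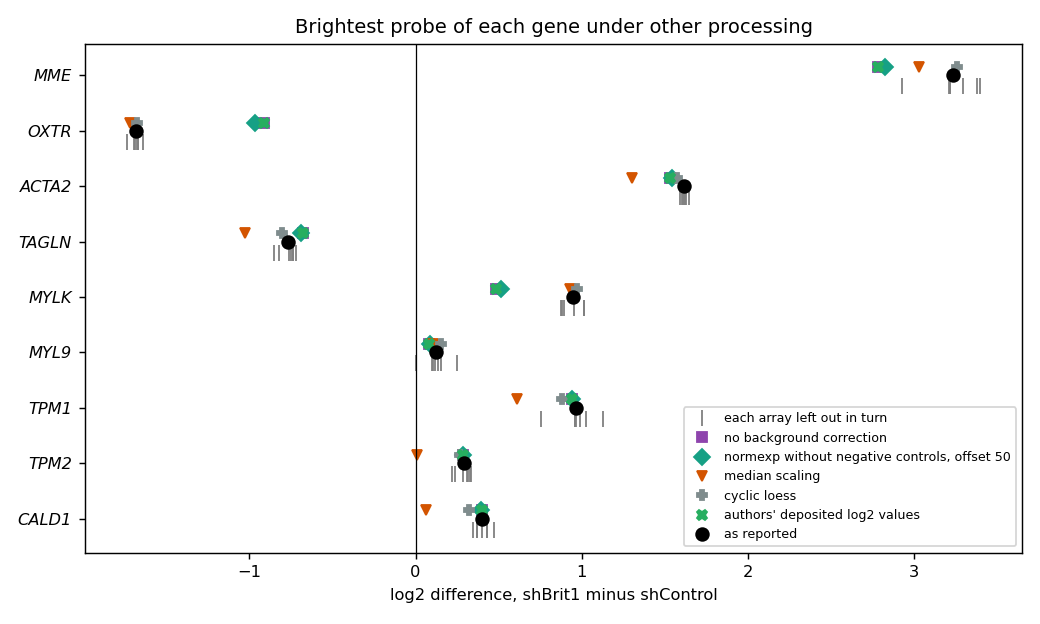
Log2 difference of shBrit1 minus shControl (horizontal axis) of each gene's brightest tested probe, as reported (black) and under other background corrections and normalizations (coloured symbols), with grey ticks for each array left out in turn. The authors' deposited values nearly cover those with no background correction. OXTR and MYLK, which are dim, move towards 0 without background correction, and TPM2 and CALD1, which are bright, move to 0.01 and 0.06 with median scaling.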

How the data were processed

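Expression was measured on 7 bead arrays of MCF-10A cells, 4 shBrit1 and 3 shControl, grouped by title. In the deposited table each probe has an intensity on every array and its detection p-value, as named per the file headers. The intensities had medians of 75.9 to 87.6 over the arrays. The authors also deposited log2 values, whose median was 6.37 on every array and which served as an alternative. Their software is not stated in the labels.

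Intensities were background-corrected and quantile-normalized with neqc (limma 3.58.1, R 4.3.3, offset 16). Groups were compared with lmFit and eBayes, two-sided, and p-values were adjusted by Benjamini-Hochberg over all 17967 kept probes. Where a gene had several kept probes, the one with the highest mean over the 7 arrays stood for it. A gene undetected on every array of a group is given as a bound, from the higher of that array's lowest detected signal and the probe's own. Such a bound holds only for background-corrected values. Probe names came from the platform annotation (24782 probes named, 23919 unnamed), which gene identifiers checked against RefSeq GRCh38.p14 left unchanged. Promoter sequences are RefSeq's.

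The genes and lists were chosen with earlier results of these data known. Named were the 10 genes, and in each list the 3 genes with the highest mean level and the 3 called ones with the largest difference. Some genes that this rule names are not reported here. The fit was tested on simulated data. P-values measure the spread between these arrays only. Alternatives were other background corrections, normalizations, filters and variance models, the replicate block, and each array left out.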

Additional observations from a re-analysis of the deposited data

Results flagged for a closer look

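In shBrit1, where 4 arrays allow Dixon's test for 1 array far from the rest, 67 values were checked and 2 stood out, 2.99% of them, where chance gives about 1 in 20. At MME probe 1 shBrit1 replicate 1 read 10.29, and the other shBrit1 arrays read 10.53 to 10.55 (gap over range 0.916). It still lay above the highest control. At KRT8 shBrit1 replicate 3 read 12.09, and the other shBrit1 arrays read 11.97 to 11.98 (gap over range 0.932).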

How the results depend on the processing

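MME probe 1, ACTA2 and TPM1 probe 1 were called higher, and TAGLN probe 1 lower, in each of 17 alternatives, and MYLK higher and OXTR lower in each of the 16 that kept them. TPM2 probe 1 lost its call in 8 of 17 alternatives, with log2 differences of 0.01 to 0.33 and adjusted p-values up to 0.945, and CALD1 probe 1 in 2 of 17 (0.06 with median scaling and 0.37 with the replicate block). TPM2 probe 3 was called lower in 2 of 16, with array weights and without shControl replicate 3. With median scaling 4 probes of these genes were higher. Requiring detection on all 7 arrays left 1 gene and 1 probe lower, because OXTR was then not tested. With the replicate block 4 genes were higher and 2 lower, and over all probes 4252 were higher and 4205 lower, against 4829 and 4840 without it. That fit rests on the 3 shared numbers, so shBrit1 replicate 4 adds nothing to it. Deviations from the group means correlated at -0.0211 to 0.0967 for same-numbered arrays and at -0.0904 to 0.0981 for differently numbered ones. All of these were small, so the numbers were not taken as pairs. The mean of a gene's kept probes in place of its brightest gave 4 genes higher and 2 lower, TPM2 and CALD1 being not called. The cause of these changes was not tested. Signals near background limit OXTR, MYLK, MYL9 and CNN1.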
